A study of Mus musculus with 24 samples.

Results

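Bone of transgenic and wild-type female mice was compared at 18 months of age, the oldest age in the study, with 3 arrays of each genotype. These 6 arrays were all those whose titles name 18 months, of 24 in the series, which covers both genotypes at 3, 6, 12 and 18 months. The transgenic animals are HSD2OB-tg mice and the controls are wild-type mice. No drug or diet separated the groups, since both were kept on standard chow. Total RNA came from tibia and femur, and the marrow was flushed from the tibia before isolation. For the femur no such step is mentioned, and no strain is named in the labels. The series describes its replicates as biological triplicates. It does not say whether an array holds 1 animal or a pool.

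Glucocorticoids reach the glucocorticoid receptor only in their active form, and a pair of enzymes sets how much active hormone a cell holds. Hsd11b1 encodes the enzyme that mainly regenerates active glucocorticoid, and Hsd11b2 encodes the enzyme that inactivates it, which is normally abundant in kidney rather than bone. Mice that express Hsd11b2 in the osteoblast lineage are used to blunt glucocorticoid action inside bone-forming cells while circulating hormone still reaches other cells. The line of this name is generally described as driven by a fragment of the Col1a1 promoter, which is active in osteoblasts and osteocytes. A whole-bone extract also holds cartilage, vessels, marrow blood cells, marrow fat and adhering muscle. Old marrow is known for more fat and for fewer new B cells than young marrow, and glucocorticoids are known to lower B cell numbers and to raise neutrophil counts in blood.

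The deposited signals were treated as log2 values, and a difference below is transgenic minus wild type on that scale. In the main fit with all 6 arrays of the oldest age it equals the transgenic mean minus the wild-type mean. Differences at some younger ages, and those given without an array, are fitted values adjusted for the source-code prefix of the arrays. They can depart from the plain difference of means. The deposited signals ran from 0.0921 to 13.72 over the whole series. The medians of the 6 arrays lay between 3.57 and 3.63, and these arrays correlated across genes at 0.971 to 0.989. The female label fits the bright Xist signal, which lay between 10.17 and 10.46 on the 6 arrays. Bone markers were bright, with Col1a1, a main collagen of bone, at 10.83 to 12.49 and the osteocyte product Sost, a Wnt inhibitor, at 6.56 to 7.99. Marrow genes also gave signal on every array, for example Elane, neutrophil elastase, at 10.91 to 11.41. In tissue markers 3 arrays stood apart. Wild-type replicate 1 had a mean of 6.95 over 16 skeletal muscle genes, against 8.99 to 10.71 on the other 5 arrays, and the lowest mean over adipocyte genes among the wild-type arrays. Transgenic replicate 3 had the lowest means of the 6 over osteoblast, early B cell and mature B cell genes. Transgenic replicate 2 had a mean of 6.40 over cartilage genes, against 3.61 to 4.70 on the other 5 arrays. For several lists and main genes whose values rest on these arrays, the value is also given without them.

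Hsd11b2, the gene the transgene carries, separated the genotypes and so checked the labels. Its signal was 3.59, 3.52 and 3.70 in wild-type replicates 1, 2 and 3 and 4.88, 5.10 and 4.47 in the transgenic replicates. Every transgenic array lay above every wild-type array. The difference was 1.21 ± 0.22 (SE, n = 3 per genotype, 95% interval 0.75 to 1.67), or 2.32-fold, with an unadjusted p of 3.2e-05 and a Benjamini-Hochberg adjusted p of 0.354 in limma over 22180 genes. An exact two-sided permutation test over the 6 arrays gave p = 0.1, the smallest that 3 arrays against 3 allow. The difference was 1.48 at 3 months, 0.92 at 6 months and 0.99 at 12 months, and its 18-month value differed from the mean of those ages by 0.08 ± 0.26 (SE, unadjusted p = 0.755).

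**Figure D1:**
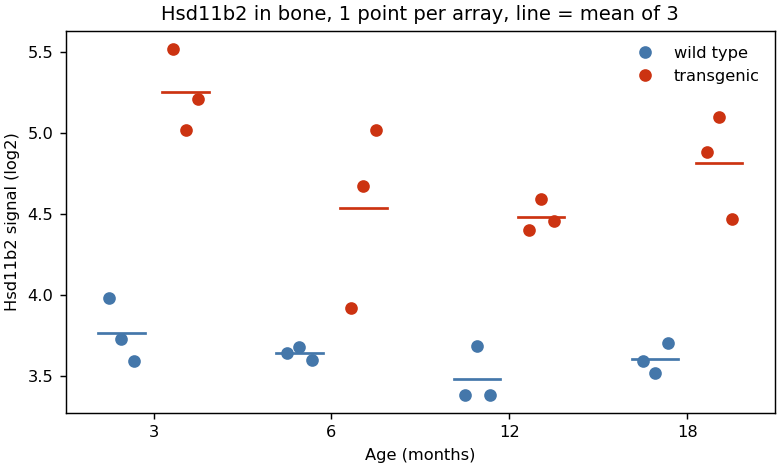
Hsd11b2 signal (log2, vertical axis) against age in months, with 1 point per array, blue for wild type, red for transgenic, and a line at each group's mean of 3 arrays. At 18 months the transgenic arrays lie between 4.47 and 5.10 and the wild-type arrays between 3.52 and 3.70, without overlap.

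Which other genes differed in old bone? No gene passed an adjusted p of 0.05 in limma (0 of 22180, 0%), and Hsd11b2 and Ube2dnl2 shared the lowest adjusted p, 0.354. At an unadjusted p under 0.05 there were 972 genes (4.38%), of which 481 were higher (2.17%) and 491 lower (2.21%) in transgenic bone. For 1893 genes (8.53%) the arrays of the genotypes did not overlap, with 1017 higher (4.59%) and 876 lower (3.95%). These shares are the background against which every gene group below is read. The median difference over all genes was -0.000265, the central 95% lay between -0.47 and 0.45, and 49.9% of genes had a difference above 0 and 50.1% below 0. Since nothing passed the adjusted test, no gene is called changed here and the genes below are described by their values.

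The genes that met both looser criteria, an unadjusted p under 0.05 and no overlap, were split unevenly by brightness. Among the 11090 genes with a mean above the median of 4.33, 182 were higher (1.64%) and 72 lower (0.649%) in transgenic bone. Among the 11090 dimmer genes, 135 were higher (1.22%) and 206 lower (1.86%). The excess of higher genes on the bright side depended on the scaling between arrays. Of the bright genes meeting both criteria, 71.7% were higher with the deposited values, 61.9% (143 higher, 88 lower) after centring each array on its median, and 54.9% (118 higher, 97 lower) after quantile normalization. Without transgenic replicate 1 the counts were 213 higher and 226 lower (48.5% higher), without wild-type replicate 1 they were 285 and 200 (58.8%), and without transgenic replicate 3 they were 154 and 50 (75.5%).

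**Figure D2:**
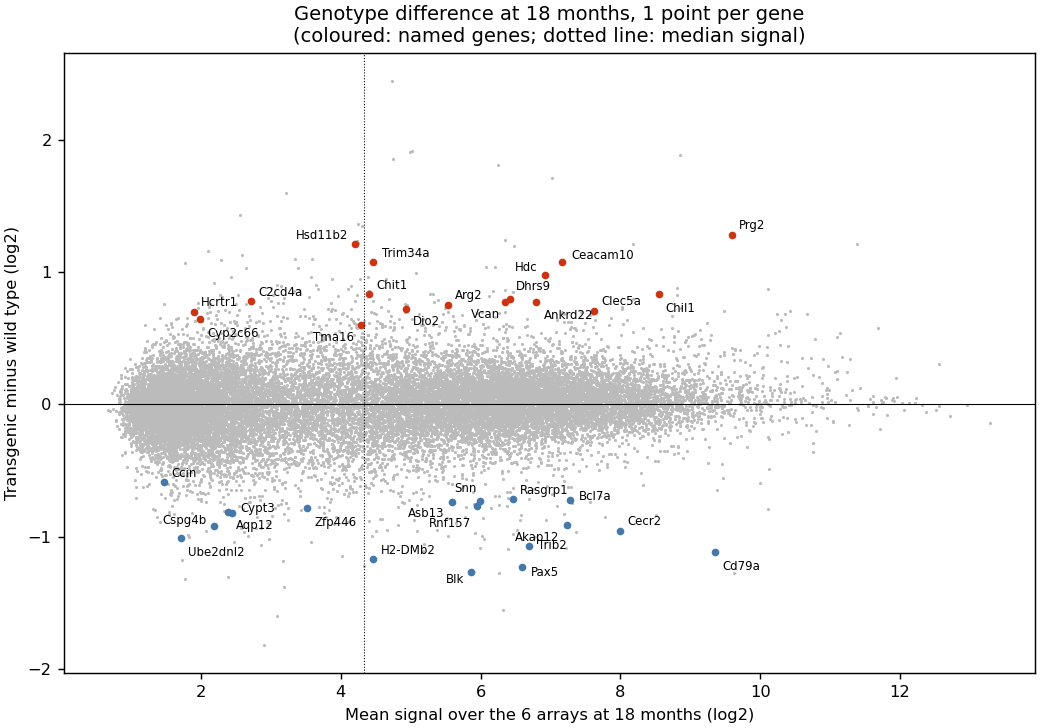
Transgenic minus wild-type difference at 18 months (log2, vertical axis) against mean signal over the 6 arrays (log2, horizontal axis), with 1 grey point per gene, named genes coloured red where higher and blue where lower, and a dotted line at the median signal of 4.33. The named bright genes on the higher side include Prg2, Hdc, Ceacam10 and Chil1, and those on the lower side include Cd79a, Pax5, Trib2 and Blk.

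The 12 largest higher differences among bright genes that met both criteria included several genes known from granulocytes and other myeloid cells. In order of size they were Prg2 (1.28), Trim34a (1.08), Ceacam10 (1.07), Hdc (0.98), Chil1 (0.84), Chit1 (0.83), Dhrs9 (0.80), Vcan (0.78), Ankrd22 (0.77), Arg2 (0.75), Dio2 (0.72) and Clec5a (0.71). Prg2 encodes the major basic protein of eosinophil granules, and its signal was 8.90, 9.21 and 8.74 in wild-type and 9.35, 10.70 and 10.65 in transgenic bone. Hdc makes histamine and is used in myeloid and mast cells, and it read 6.42, 6.49 and 6.38 against 7.12, 7.42 and 7.68. For Hdc the wild-type arrays were tightly grouped and every transgenic array lay clearly above them, with a difference of 0.98 ± 0.28 (SE, unadjusted p = 0.00252). Ceacam10, a member of the carcinoembryonic antigen family, read 5.95, 7.06 and 6.87 against 7.48, 7.75 and 7.88 (difference 1.07 ± 0.27 SE, unadjusted p = 0.00103). Chil1, a chitinase-like secreted protein of neutrophils and macrophages, read 8.38, 7.83 and 8.17 against 8.76, 8.86 and 9.26 (0.84 ± 0.24 SE, unadjusted p = 0.00283). Transgenic replicate 1 was the lowest transgenic array for Prg2, Hdc, Ceacam10 and Chil1. Dio2, which activates thyroid hormone, and Trim34a each had a second, dimmer array row, and those rows gave -0.20 and 0.12. Without transgenic replicate 3 the differences were 0.43 for Vcan, 0.45 for Arg2, 0.45 for Clec5a and 0.51 for Ankrd22, and without wild-type replicate 2 that of Chit1 was 0.47. The adjusted p was 1 for each of these 12 genes.

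The 12 largest lower differences among bright genes included Blk, Pax5 and Cd79a, genes of the B lineage. In order of size they were Blk (-1.27), Pax5 (-1.23), H2-DMb2 (-1.17), Cd79a (-1.11), Trib2 (-1.07), Cecr2 (-0.95), Akap12 (-0.91), Rnf157 (-0.76), Asb13 (-0.74), Snn (-0.73), Bcl7a (-0.72) and Rasgrp1 (-0.72). Blk, a Src-family kinase of B cells, read 7.03, 6.26 and 6.21 in wild-type and 5.90, 6.06 and 3.74 in transgenic bone. Transgenic replicate 3 set much of that size, and without it the Blk difference was -0.55. The same array was the lowest of the 6 for every one of these 12 genes. Without it 11 of the 12 differences were nearer to 0, for example -0.49 for Trib2, a pseudokinase, and that of H2-DMb2 was -1.18. Asb13, a SOCS-box protein, read 6.14, 5.88 and 5.85 against 5.33, 5.44 and 4.88 (-0.74 ± 0.19 SE, unadjusted p = 0.000907, adjusted p = 1). Rasgrp1, a Ras activator of lymphocytes, read 7.34, 6.43 and 6.67 against 6.15, 6.42 and 5.74, a narrow separation.

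The lowest p-values belonged mostly to dim genes. On the higher side these were Hsd11b2, C2cd4a, Tma16, Cyp2c66, Hcrtr1 and Ceacam10. On the lower side they were Ube2dnl2, Aqp12, Cspg4b, Zfp446, Ccin and Cypt3. Ube2dnl2, an E2 ubiquitin-conjugating enzyme homologue, read 1.80, 2.47 and 2.40 in wild-type and 1.04, 1.23 and 1.36 in transgenic bone (-1.01 ± 0.17 SE, unadjusted p = 1.6e-05). Aqp12, an aquaporin known from pancreas, averaged 2.80 ± 0.26 (SD, n = 3) against 1.98 ± 0.16, without overlap (-0.82 ± 0.16 SE, unadjusted p = 9.3e-05, adjusted p = 0.481). C2cd4a read 2.28, 2.10 and 2.60 against 3.31, 3.08 and 2.93 (0.78 ± 0.16 SE, unadjusted p = 0.000157, adjusted p = 0.58). All 3 lay below the median gene signal of 4.33, and no detection calls were used, so whether they stood above background was not tested.

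Promoters of 4 neutrophil granule and MHC class II genes are shown here, because these groups are textbook targets of known DNA-binding factors. Their lists were chosen with earlier results of these data known. All 4 genes are among the 4 members of lowest unadjusted p in their lists. The MHC class II list means overlapped between genotypes. Windows of 300 bases, 250 before and 50 after the RefSeq start on GRCm38.p6, were searched on both strands for 5 motifs whose spellings were chosen after others had been tried. In the windows printed, capitals mark the motif named. Prtn3 (chr10:79879417-79879716, plus strand), a primary granule protease gene, holds GAGGAAGT, a site of the myeloid factor PU.1. Mmp8 (chr9:7558179-7558478, plus strand), the neutrophil collagenase gene, holds TTNCNNAA, a loose C/EBP site, in 2 places. H2-DMb2 (chr17:34144999-34145298, plus strand) and H2-Eb1 (chr17:34305617-34305916, plus strand), MHC class II genes, hold GATTGG, the Y box core bound by NF-Y, and H2-Eb1 holds it also on the other strand, where it reads CCAATC.
Prtn3: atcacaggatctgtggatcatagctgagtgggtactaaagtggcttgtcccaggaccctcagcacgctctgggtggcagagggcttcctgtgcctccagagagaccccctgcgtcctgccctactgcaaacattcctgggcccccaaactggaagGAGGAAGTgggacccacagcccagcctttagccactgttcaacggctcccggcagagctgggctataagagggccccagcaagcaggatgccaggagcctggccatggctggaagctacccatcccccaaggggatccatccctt
Mmp8: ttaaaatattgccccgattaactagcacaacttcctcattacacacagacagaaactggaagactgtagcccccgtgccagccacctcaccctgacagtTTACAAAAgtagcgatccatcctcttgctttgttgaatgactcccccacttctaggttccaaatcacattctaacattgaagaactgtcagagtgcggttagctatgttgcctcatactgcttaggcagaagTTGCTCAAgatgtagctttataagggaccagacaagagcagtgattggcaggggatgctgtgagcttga
H2-DMb2: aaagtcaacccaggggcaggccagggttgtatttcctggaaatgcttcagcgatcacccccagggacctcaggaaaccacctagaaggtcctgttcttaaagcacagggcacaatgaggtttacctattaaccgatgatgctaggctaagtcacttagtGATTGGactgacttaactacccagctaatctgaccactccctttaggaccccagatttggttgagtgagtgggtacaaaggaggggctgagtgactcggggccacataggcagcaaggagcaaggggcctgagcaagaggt
H2-Eb1: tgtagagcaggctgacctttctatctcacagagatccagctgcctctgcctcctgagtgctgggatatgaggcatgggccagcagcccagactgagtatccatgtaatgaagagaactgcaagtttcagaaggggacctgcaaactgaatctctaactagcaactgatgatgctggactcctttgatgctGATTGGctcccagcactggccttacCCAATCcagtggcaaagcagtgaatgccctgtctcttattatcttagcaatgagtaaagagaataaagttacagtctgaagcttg

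A motif match describes only these letters in these windows. Shares are of genes, and a gene counts if any of its windows holds the motif. GATTGG was found in 18.2% of all 27025 genes with a promoter window and in 7 of the 7 MHC class II genes that had a window. GAGGAAGT was found in 3.69% of all these genes, in 3 of 7 primary granule genes, in 4 of 12 secondary and tertiary granule genes and in 0 of 11 mature neutrophil genes. TTNCNNAA was found in 44.1% of all genes with a window and in 11 of 12 secondary and tertiary granule genes. It was also found in 2 of 7 primary granule, 6 of 11 mature neutrophil and 8 of 11 mature B cell genes. GATTGG was also found in 7 of 16 glucocorticoid response genes. CCCNNGGG, the core of an EBF1 site, was found in 15.4% of all genes with a window and in 2 of 12 early B cell genes. The glucocorticoid response element was searched as AGAACA and TGTTCT with 3 bases between them. It was found in 0.0111% of all genes with a window, which is 3 genes, and in 1 of 16 glucocorticoid response genes.

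Neutrophil genes lay higher in transgenic bone at 18 months across all 3 stages that were listed. Neutrophils load primary granules with proteases as promyelocytes, then secondary and tertiary granules, and last acquire the receptors of the mature cell. Of 8 primary granule genes, 7 had a difference above 0 (median 0.51), 7 had an unadjusted p under 0.05 on the higher side (background 2.17%) and 5 did not overlap (background 4.59%). Of 15 secondary and tertiary granule genes, 15 were above 0 (median 0.28), 3 had an unadjusted p under 0.05 and 4 did not overlap. Of 11 mature neutrophil genes, 11 were above 0 (median 0.54), 4 had an unadjusted p under 0.05 and 7 did not overlap. None passed the adjusted test. In bulk bone, more cells of a type and more RNA per cell cannot be told apart.

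Granule protease genes come first. Prtn3, proteinase 3, read 9.98, 10.22 and 9.83 in wild-type and 10.61, 10.66 and 10.83 in transgenic bone. The transgenic arrays all lay above the wild-type ones and close together, with a difference of 0.69 ± 0.20 (SE, unadjusted p = 0.00244). Ms4a3, a membrane protein of granulocyte precursors, read 7.40, 7.06 and 7.08 against 7.58, 7.72 and 8.10 (0.62 ± 0.18 SE, unadjusted p = 0.0033). Mpo, myeloperoxidase, read 10.05, 9.79 and 9.77 against 10.15, 10.32 and 10.46 (0.44 ± 0.14 SE, unadjusted p = 0.00618). Both also separated the genotypes, though wild-type replicate 1 came close to transgenic replicate 1. Ctsg, cathepsin G, read 8.85, 8.25 and 8.25 against 8.84, 8.90 and 9.33, an overlap by that same pair of arrays. Cebpa, a transcription factor that granulocyte precursors share with fat cells and that is counted in both lists, was the member below 0, at -0.08.

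Among later granule genes, Chil3, a chitinase-like granule protein, read 11.08, 10.84 and 10.71 in wild-type and 11.37, 11.43 and 11.44 in transgenic bone (0.54 ± 0.19 SE, unadjusted p = 0.0111). Mmp8 read 9.88, 9.91 and 9.74 against 10.11, 10.32 and 10.68 (0.53 ± 0.23 SE, unadjusted p = 0.0333). Ly6g, the surface marker used to sort mouse neutrophils, read 8.38, 7.60 and 7.38 against 8.29, 8.57 and 8.90. Chil3 and Mmp8 separated the genotypes and Ly6g did not, because wild-type replicate 1 lay above transgenic replicate 1. Of the mature markers, the chemokine Ccl6 read 6.31, 6.05 and 5.69 against 6.90, 6.32 and 6.61 (0.59 ± 0.19 SE, unadjusted p = 0.00493). The cytokine gene Il1b read 7.02, 6.59 and 6.82 against 7.56, 7.35 and 7.62 (0.70 ± 0.23 SE, unadjusted p = 0.00691). Both were separated in all arrays, as was the formyl peptide receptor gene Fpr2 at 7.06, 6.97 and 6.78 against 7.35, 7.72 and 7.37 (0.54 ± 0.19 SE, unadjusted p = 0.0123). Trem1, an activating myeloid receptor, had the largest difference of the mature list, 0.73, with overlap.

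Averaged over each list, the neutrophil groups separated the genotypes on every array. The primary granule mean was 8.27, 8.08 and 8.03 in wild-type and 8.53, 8.46 and 8.74 in transgenic bone. The secondary and tertiary mean was 9.74, 9.39 and 9.26 against 9.78, 9.76 and 9.93, with wild-type replicate 1 just under the transgenic arrays. For mature genes it was 7.54, 7.45 and 7.14 against 7.93, 7.77 and 7.95. Leaving out each array in turn moved the list medians within 0.36 to 0.67 for primary, 0.21 to 0.41 for secondary and tertiary, and 0.36 to 0.56 for mature genes. Of other marrow lineages, medians were 0.04 for 11 erythroid genes, 0.10 for 9 megakaryocyte genes, all 9 above 0, and -0.01 for 11 progenitor genes. Without transgenic replicate 3 the megakaryocyte median was -0.21. For 14 monocyte and macrophage genes the median was -0.16, with Ccr2, a receptor of inflammatory monocytes, the member with an unadjusted p under 0.05 (0.46, unadjusted p = 0.0413, and 0.16 without transgenic replicate 3).

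**Figure D3:**
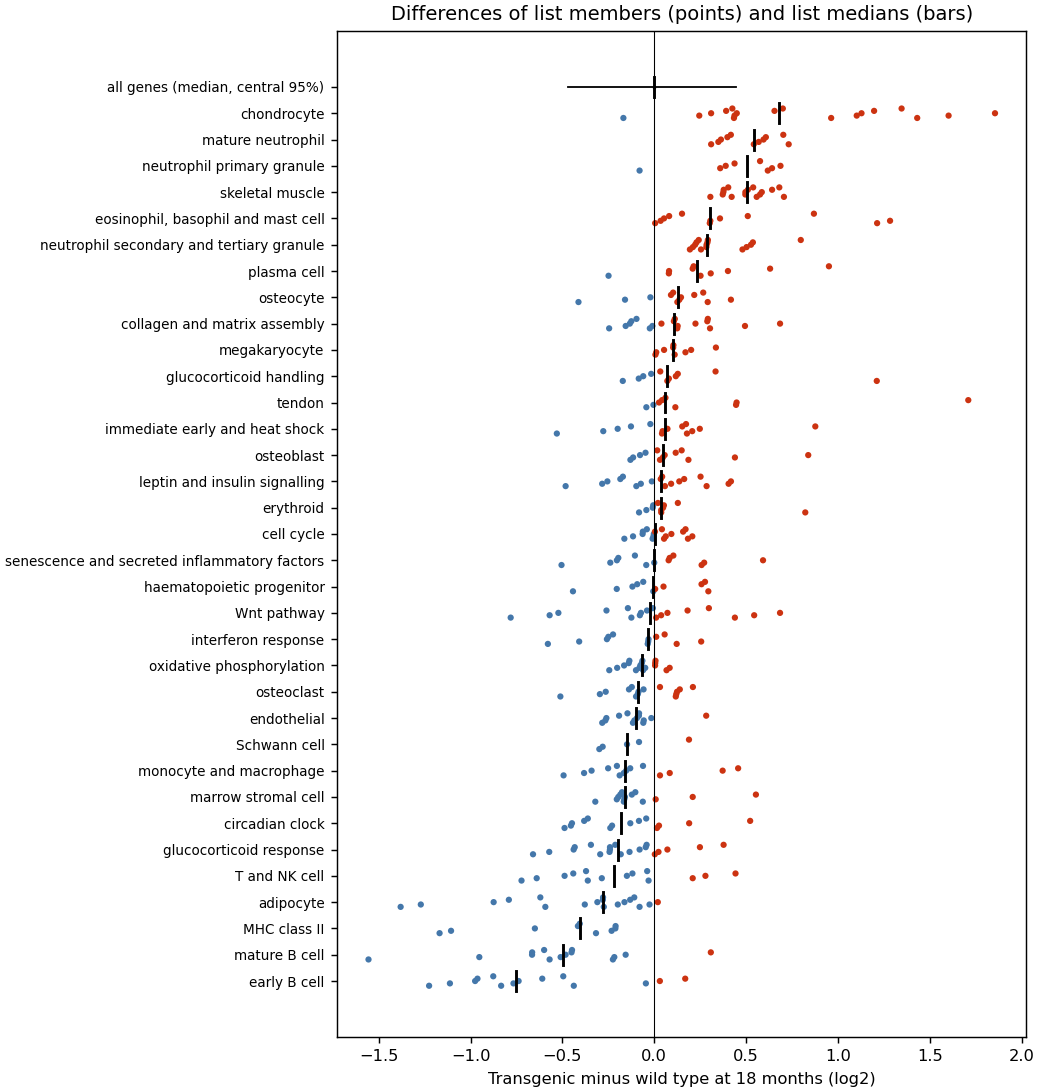
Transgenic minus wild-type difference at 18 months (log2, horizontal axis) for each member of the gene lists, with 1 point per gene, red above 0 and blue below, a black bar at each list's median, and the median and central 95% of all genes in the first row. The mature and primary granule neutrophil lists have medians of 0.54 and 0.51, and the early and mature B cell lists -0.75 and -0.50.

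Eosinophil, basophil and mast cell genes were above 0 in 12 of 12 (median 0.30), with 1 of 12 at an unadjusted p under 0.05 and 2 of 12 without overlap. The eosinophil granule genes carried the size, with Prg2 at 1.28, Epx, eosinophil peroxidase, at 1.21 (unadjusted p = 0.123) and Prg3 at 0.87 (unadjusted p = 0.111). Epx read 6.77, 8.16 and 7.79 in wild-type and 7.59, 9.65 and 9.12 in transgenic bone, so replicate 1 was the lowest array of each genotype. Siglecf, an eosinophil surface lectin, read 4.60, 4.41 and 4.43 against 4.83, 4.88 and 4.64 (0.30, unadjusted p = 0.0845, no overlap). Basophil and mast cell genes of the same list ran from 0.00 for Gata2 through 0.05 for the protease gene Prss34, 0.15 for Cpa3 and 0.36 for Mcpt8 to 0.51 for the IgE receptor gene Fcer1a, all with overlap. Without transgenic replicate 3 the list median was 0.03.

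B lineage genes lay lower in transgenic bone, with a size that depended on transgenic replicate 3. B cells form in marrow from precursors that depend on the interleukin 7 receptor and on the factors Ebf1 and Pax5. Of 14 early B cell genes, 12 were below 0 (median -0.75), 4 had an unadjusted p under 0.05 on the lower side (background 2.21%) and 4 did not overlap (background 3.95%). Of 14 mature B cell genes, 13 were below 0 (median -0.50), 2 had an unadjusted p under 0.05 and 1 did not overlap. Without transgenic replicate 3 these medians were -0.37 and -0.23, still with 11 of 14 and 12 of 14 members below 0.

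Pax5, the factor that fixes B cell identity, read 7.63, 6.86 and 7.12 in wild-type and 6.52, 6.68 and 4.74 in transgenic bone (-1.23 ± 0.46 SE, unadjusted p = 0.016). Cd79a, a signalling chain of the B cell receptor, read 10.12, 9.59 and 10.01 against 9.23, 9.46 and 7.69 (-1.11 ± 0.42 SE, unadjusted p = 0.0166). For both, all 3 transgenic arrays lay below the wild-type arrays, and replicate 3 was lower again by more than the gap between the genotypes. Without it the differences were -0.60 for Pax5 and -0.57 for Cd79a. The partner chain Cd79b read 9.29, 8.53 and 8.94 against 8.22, 8.57 and 7.48 (-0.83, unadjusted p = 0.017), and Il7r, the interleukin 7 receptor chain, read 8.45, 7.91 and 7.44 against 7.54, 7.41 and 6.63 (-0.74, unadjusted p = 0.0446). In these the genotypes overlapped, although within same-numbered pairs Il7r was lower in all 3 (-0.91, -0.50 and -0.81) and Cd79b in 2.

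Of mature B cell genes, Spib, an Ets-family factor, read 7.65, 6.49 and 7.15 in wild-type and 6.02, 6.89 and 3.71 in transgenic bone (-1.56 ± 0.58 SE, unadjusted p = 0.0145, and -0.65 without transgenic replicate 3). Fcrla, an Fc receptor-like protein of B cells, read 7.35, 6.80 and 6.84 against 6.14, 6.86 and 5.13 (-0.95, unadjusted p = 0.0331). Transgenic replicate 2 lay within the wild-type range for both. Cd22 and Cxcr5, a B cell lectin and a homing receptor, had differences of -0.66 and -0.57 with overlap. Ighm, the heavy chain of IgM, was the member above 0, at 0.31, and its other array rows ran from -2.09 to 1.24, so it gave no single direction. The early B cell list mean was 7.29, 7.12 and 6.69 against 6.69, 6.70 and 5.81, and the mature list mean 7.30, 6.39 and 6.61 against 6.51, 6.59 and 5.66. By pair the early list differed by -0.60, -0.42 and -0.88, all below 0, and the mature list was below 0 in pairs 1 and 3 only.

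Plasma cell genes did not follow the B cell genes. Of 10, 9 were above 0 (median 0.23), 2 had an unadjusted p under 0.05 on the higher side and 1 did not overlap. Fkbp11, a chaperone of secretory cells, read 5.32, 5.26 and 5.34 in wild-type and 5.98, 5.65 and 6.18 in transgenic bone (0.63 ± 0.28 SE, unadjusted p = 0.0349). Eaf2, an elongation factor partner of germinal centre and plasma cells, read 3.58, 4.09 and 3.73 against 4.58, 3.79 and 5.89 (0.95, unadjusted p = 0.0284, and 0.39 without transgenic replicate 3). The transgenic arrays were spread more widely than the wild-type ones, and without transgenic replicate 3 the list median was -0.06.

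MHC class II genes, which B cells, macrophages and dendritic cells use to present antigen, lay lower in transgenic bone. Of 9, 9 were below 0 (median -0.41), 2 had an unadjusted p under 0.05 and 1 did not overlap. H2-DMb2, whose promoter is printed above and whose product helps load peptides, read 6.05, 4.07 and 5.03 in wild-type and 3.96, 4.06 and 3.63 in transgenic bone (-1.17 ± 0.43 SE, unadjusted p = 0.0147). The separation was by the narrow gap between wild-type replicate 2 and transgenic replicate 2. H2-Ab1, a classical beta chain, read 10.11, 9.46 and 9.53 against 9.51, 8.65 and 8.99 (-0.65 ± 0.31 SE, unadjusted p = 0.0491). H2-Eb1 read 6.45, 4.03 and 6.69 against 4.89, 4.04 and 4.91 (-1.11, unadjusted p = 0.141), and replicate 2 was far below the others in both genotypes. The list mean was 6.21, 4.99 and 5.52 against 5.27, 4.75 and 5.13, with overlap, and by pair it differed by -0.94, -0.25 and -0.39, all below 0. Wild-type replicate 1 was the highest array, and without it the median was -0.17 with 7 of 9 below 0.

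T and NK cell genes had a median of -0.22, with 11 of 14 below 0. Cd2, an adhesion receptor of T and NK cells, read 6.00, 4.68 and 5.35 in wild-type and 5.02, 4.46 and 4.38 in transgenic bone (-0.72, unadjusted p = 0.0265). Nkg7, a granule protein of NK and cytotoxic T cells, went the other way, at 7.84, 7.61 and 7.60 against 7.88, 8.06 and 7.95 (0.28, unadjusted p = 0.119). Cd3d was also above 0, at 0.44, with overlap. The list median stayed below 0 without each array in turn, from -0.44 to -0.06.

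**Figure D4:**
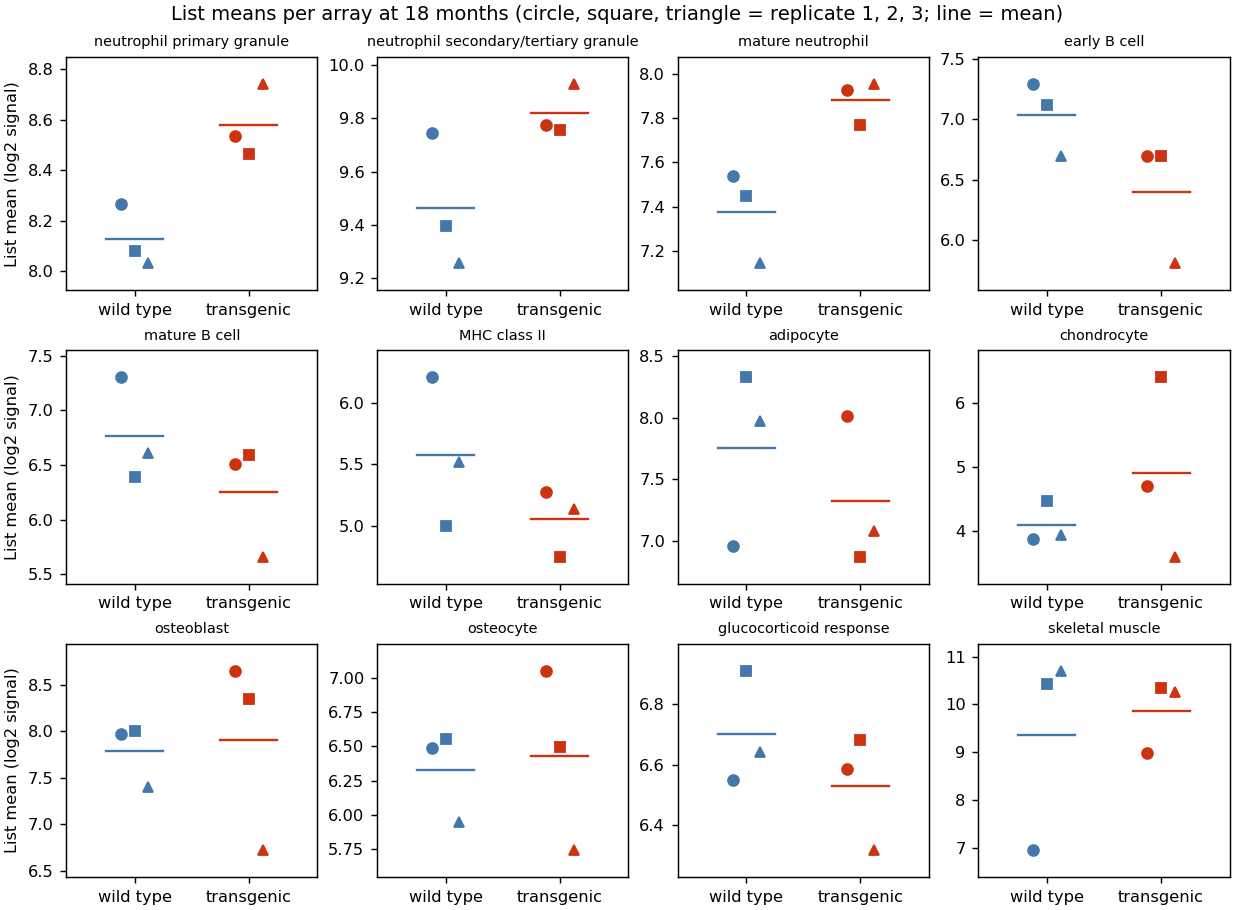
Mean log2 signal over the members of 12 gene lists on each array at 18 months, blue for wild type and red for transgenic, with circle, square and triangle for replicates 1, 2 and 3 and a line at the group mean. The 3 neutrophil lists separate the genotypes, while the triangle of transgenic replicate 3 is lowest in the B cell, osteoblast and osteocyte panels and the circle of wild-type replicate 1 is lowest for skeletal muscle and adipocyte genes among wild-type arrays.

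The title of the study concerns leptin resistance and obesity, so fat and leptin genes were read next. Marrow fat cells store lipid and secrete leptin and adiponectin. Of 18 adipocyte genes, 17 were below 0 (median -0.28), 3 had an unadjusted p under 0.05 on the lower side and 0 were without overlap. Lep, leptin, read 2.22, 4.72 and 4.68 in wild-type and 3.35, 2.12 and 2.00 in transgenic bone (-1.38 ± 0.61 SE, unadjusted p = 0.0368). Wild-type replicate 1 was as dim as the lowest transgenic arrays, and transgenic replicate 1 was the brightest of its genotype. Adipoq, adiponectin, read 7.11, 8.04 and 7.54 against 7.46, 6.40 and 6.97 (-0.62 ± 0.26 SE, unadjusted p = 0.03). Plin1, which coats fat droplets, read 5.70, 7.64 and 7.35 against 7.28, 4.79 and 4.80 (-1.27 ± 0.60 SE, unadjusted p = 0.0488).

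Adipocyte genes shared a pattern over arrays in which replicate 1 ran opposite to replicates 2 and 3. The list mean was 6.95, 8.33 and 7.97 in wild-type and 8.01, 6.87 and 7.08 in transgenic bone, so with replicate 1 the transgenic array was higher and with replicates 2 and 3 it was lower. Replicate 1 of both genotypes carries another source-code prefix than replicates 2 and 3. Within the commoner prefix, which holds replicates 2 and 3, the mean difference was -1.17, against -0.43 with all arrays. Without wild-type replicate 1 the list median was -0.75, and without wild-type replicate 2 it was -0.02. Scd1, a lipid desaturase, followed the same pattern, with means of 10.51 ± 0.72 (SD, n = 3) against 9.72 ± 1.24 (-0.79, unadjusted p = 0.143).

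Genes that receive leptin and insulin signals differed little as a group, with 10 of 18 above 0 and a median of 0.04. Igf1r, the receptor of insulin-like growth factor, read 8.12, 7.83 and 7.94 in wild-type and 8.36, 8.28 and 8.46 in transgenic bone (0.40 ± 0.12 SE, unadjusted p = 0.00397). Every transgenic array was above every wild-type array. Pik3r1, a subunit of PI3 kinase, was lower without overlap (-0.17). Foxo1, a factor held back by insulin, read 7.25, 7.72 and 7.43 against 7.18, 7.31 and 6.45 (-0.48, unadjusted p = 0.0407, and -0.19 without transgenic replicate 3). Its dimmer array row gave 0.21. Lepr, the leptin receptor, which marrow stromal cells also express, read 7.69, 7.94 and 7.16 against 8.04, 6.72 and 7.48 (-0.18, unadjusted p = 0.463). Socs3, an inhibitor of leptin receptor signalling, differed by 0.09 (unadjusted p = 0.649).

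Genes that handle glucocorticoid, other than Hsd11b2, did not separate the genotypes. Of 11 such genes, 7 were above 0 (median 0.07), and Hsd11b2 was the member with an unadjusted p under 0.05 and no overlap. Hsd11b1, which regenerates active hormone, read 5.95, 5.54 and 5.87 in wild-type and 5.86, 5.78 and 6.73 in transgenic bone (0.33 ± 0.21 SE, unadjusted p = 0.127). Transgenic replicate 3 alone lay above the wild-type range. Nr3c1, the glucocorticoid receptor, read 7.72, 7.62 and 7.79 against 7.47, 7.45 and 7.70 (-0.17 ± 0.11 SE, unadjusted p = 0.146).

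Genes known to be induced by glucocorticoids were mostly below 0, in 15 of 20, with a median of -0.20, 1 of 20 at an unadjusted p under 0.05 on the lower side and 0 of 20 without overlap on that side. Zbtb16, a zinc finger factor, read 5.54, 6.64 and 6.29 in wild-type and 5.53, 5.61 and 5.62 in transgenic bone (-0.57 ± 0.26 SE, unadjusted p = 0.0418). Wild-type replicate 1 lay with the transgenic arrays. Tsc22d3, known as glucocorticoid-induced leucine zipper, read 4.79, 4.76 and 4.68 against 4.39, 4.76 and 4.20 (-0.29, unadjusted p = 0.149). Ddit4, an inhibitor of mTOR signalling, read 6.87, 6.64 and 5.17 against 5.52, 6.10 and 5.07 (-0.66, unadjusted p = 0.0951). The widely used targets Fkbp5 and Per1 differed by -0.18 and -0.24, with overlap. Cebpd went the other way, at 4.98, 5.06 and 5.07 against 5.27, 5.65 and 5.32 (0.38, unadjusted p = 0.0604), and was the member without overlap. The list mean was 6.55, 6.91 and 6.64 against 6.59, 6.68 and 6.32, so the groups overlapped. Without transgenic replicate 3 the median was -0.09, with 12 of 20 below 0.

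Bone cell genes did not separate the genotypes at 18 months. Of 13 osteoblast genes, 9 were above 0 (median 0.05), and for 12 osteocyte genes it was 9 (median 0.13), with 0 in either list at an unadjusted p under 0.05 or without overlap. Col1a1 read 11.94, 12.04 and 11.63 in wild-type and 12.49, 12.38 and 10.83 in transgenic bone (0.03 ± 0.35 SE). Transgenic replicates 1 and 2 were above the wild-type arrays and replicate 3 below them. Without replicate 3 the osteoblast median was 0.54 with 13 of 13 above 0, and the osteocyte median 0.47 with 11 of 12 above 0. The sign turned when another transgenic array was left out, with osteoblast medians of -0.21 without either replicate 1 or replicate 2, and osteocyte medians of -0.15 and -0.02. Omd, osteomodulin, a matrix protein of osteoblasts, had the lowest p of the list, at 4.15, 5.20 and 5.24 against 6.00, 6.42 and 4.68 (0.84, unadjusted p = 0.0783). Sost read 7.06, 7.74 and 6.95 against 7.99, 7.85 and 6.56 (0.22 ± 0.32 SE, unadjusted p = 0.509).

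With all 6 arrays the medians of resorption, Wnt and matrix genes were near 0. Osteoclast genes had a median of -0.09, with 6 of 15 above 0, and Wnt pathway genes -0.02, with 8 of 18 above 0. Among 18 collagen and matrix assembly genes (median 0.11), Fn1, fibronectin, was the member with an unadjusted p under 0.05, at 10.14, 9.86 and 9.67 in wild-type and 10.94, 10.67 and 10.11 in transgenic bone (0.68 ± 0.31 SE, unadjusted p = 0.0381). Its transgenic replicate 3 lay just under wild-type replicate 1. The matrix median was 0.50 without transgenic replicate 3, with 17 of 18 above 0, and -0.20 without wild-type replicate 1, with 3 of 18 above 0. The osteoclast median was 0.13 without transgenic replicate 3, with 12 of 15 above 0. The Wnt pathway median was 0.12 without transgenic replicate 3 and -0.16 without wild-type replicate 1. Lef1, a Wnt-responsive factor that early B cells also express, was -0.78 (unadjusted p = 0.176), and Sfrp1, a Wnt inhibitor, -0.57 (unadjusted p = 0.0943).

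Cartilage genes gave the highest list median, 0.68, with 17 of 18 above 0, and it rested on transgenic replicate 2. The list mean was 3.87, 4.48 and 3.94 in wild-type and 4.70, 6.40 and 3.61 in transgenic bone. Acan, the cartilage proteoglycan aggrecan, read 2.54, 4.77 and 4.13 against 5.23, 8.55 and 3.22 (1.85 ± 1.00 SE, unadjusted p = 0.0799, and 0.51 without transgenic replicate 2). Without transgenic replicate 2 the list median was -0.10, and without transgenic replicate 3 it was 1.45. Matn1, matrilin 1, was the member without overlap, at 1.42, 1.41 and 1.61 against 1.93, 2.70 and 1.77, all dim. Skeletal muscle genes were above 0 in 16 of 16 (median 0.50), with list means of 6.95, 10.43 and 10.71 against 8.99, 10.34 and 10.26. Without wild-type replicate 1 the fitted median was -0.22, with 0 of 16 above 0. This value is adjusted for the source-code prefix and is not the plain difference of the list means above. For muscle the SD of the list means was 2.09 in wild-type and 0.76 in transgenic bone, both above the genotype difference of 0.50. For cartilage the SD was 0.33 in wild-type and 1.41 in transgenic bone, against a difference of 0.81. There only the transgenic spread exceeded the difference. How much cartilage and muscle was left on the bones was not recorded, and its part in the other results was not tested beyond a fit with the muscle mean as a covariate, under which 0 genes were called.

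**Figure D5:**
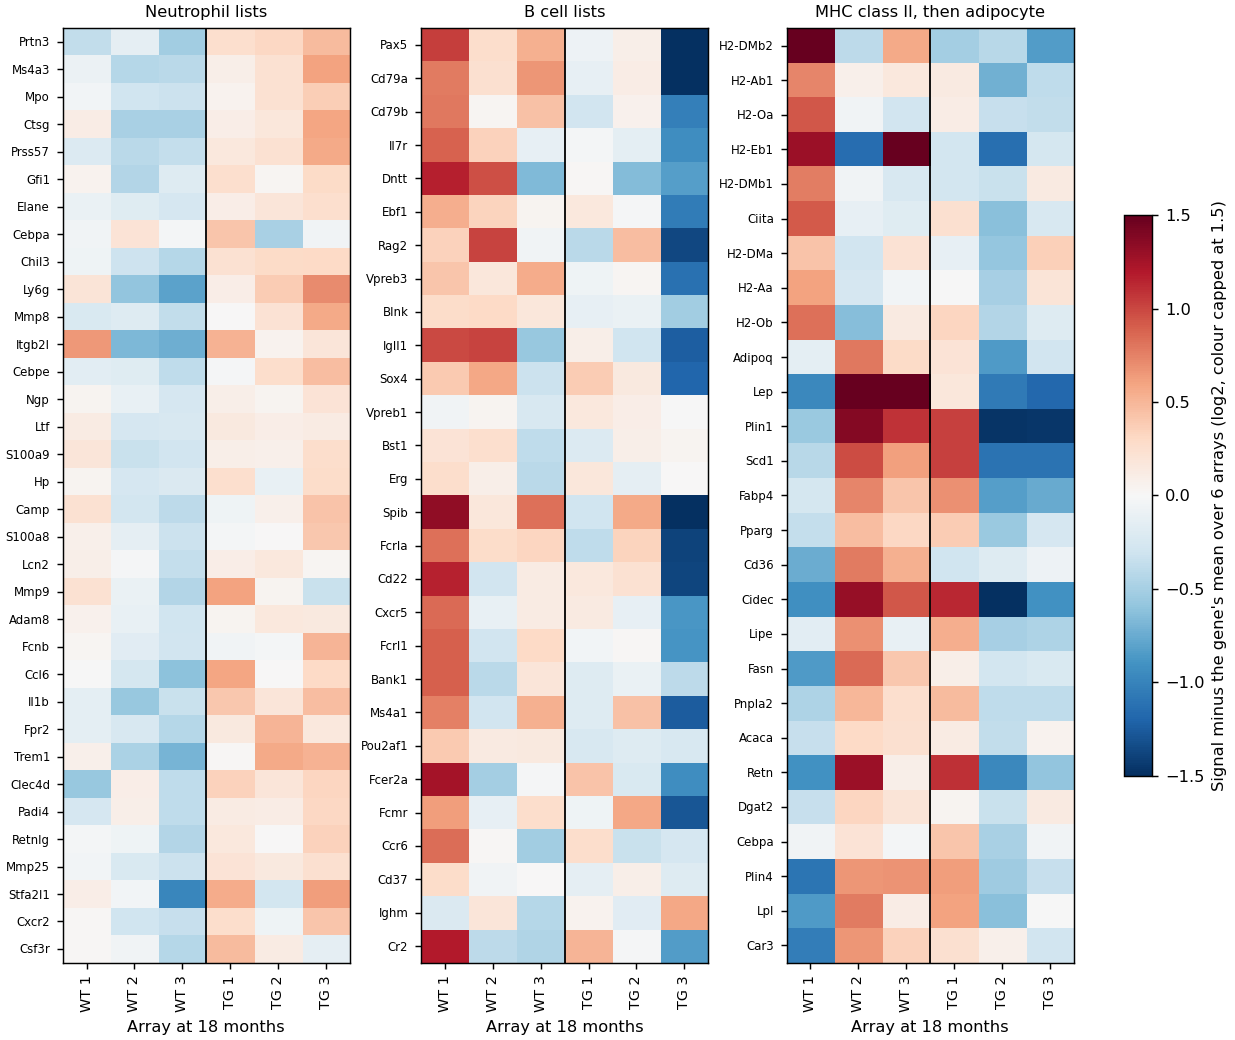
Signal of each list member on the 6 arrays at 18 months relative to that gene's mean over them (log2, colour from blue for lower to red for higher, capped at 1.5 in either direction), with neutrophil lists in the first panel, B cell lists in the second, MHC class II then adipocyte genes in the third, and a line between wild-type (WT) and transgenic (TG) replicates 1 to 3. Neutrophil rows turn from blue to red across the line, transgenic replicate 3 is the bluest B cell column, and adipocyte rows show replicate 1 opposite to replicates 2 and 3.

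The remaining lists had medians between -0.18 and 0.06, and a few members stood out. Tnf, the inflammatory cytokine, read 6.28, 5.90 and 6.14 in wild-type and 6.60, 6.46 and 7.04 in transgenic bone (0.59 ± 0.25 SE, unadjusted p = 0.0292, no overlap, and 0.38 without transgenic replicate 3), and it was the member of the 13 senescence and inflammatory genes with an unadjusted p under 0.05. Cdkn2a, a senescence marker, differed by 0.08. Procr, a surface marker of blood stem cells and vessels, read 4.66, 4.71 and 5.08 against 4.26, 4.47 and 4.39 (-0.44 ± 0.19 SE, unadjusted p = 0.032, no overlap). Pecam1, an endothelial junction protein, read 7.95, 8.03 and 7.88 against 7.76, 7.66 and 7.60 (-0.28 ± 0.13 SE, unadjusted p = 0.0421, no overlap). Of 14 endothelial genes, 13 were below 0 with a median of -0.10, and the list means overlapped. The endothelial median was -0.34 without wild-type replicate 1 and 0.05 without wild-type replicate 2. Without transgenic replicate 3 it was -0.02, with 6 of 14 above 0. Medians were -0.07 for 17 oxidative phosphorylation genes, 0.00 for 17 cell cycle genes, -0.03 for 12 interferon response genes, -0.18 for 14 circadian clock genes and 0.06 for both the 9 tendon genes and the 14 immediate early and heat shock genes. Without wild-type replicate 1 the tendon median was -0.10 and that of the immediate early and heat shock genes -0.14. Stromal cell genes of the marrow had a median of -0.16, with 3 of 14 above 0.

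Was the genotype difference at 18 months particular to that age? The contrast of the 18-month difference with the mean difference at 3, 6 and 12 months called 0 of 22180 genes in limma (0%), and 747 (3.37%) had an unadjusted p under 0.05. The lowest p-values were those of dim genes, with Zfp119b, a zinc finger gene, at a contrast of 1.20 ± 0.25 (SE, unadjusted p = 0.000119) and Ube2dnl2 at -1.03 ± 0.20 (SE, unadjusted p = 8.7e-05), each with an adjusted p of 0.849. Ppcs, Defa24, Hcrtr1 and C2cd4a followed on the higher side and Aqp12, Erbb4, Prickle3 and Slc7a11 on the lower side. Counts of genes without overlap were 900 higher (4.06%) and 886 lower (3.99%) at 3 months, 963 (4.34%) and 815 (3.67%) at 6 months, and 887 (4%) and 1188 (5.36%) at 12 months, against 1017 and 876 at 18 months.

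The younger ages were measured on arrays that the 18-month difference itself did not use. Those arrays did enter the fit whose p-values helped to select the genes below, so the ages are not an independent check. Of the 182 bright genes that were higher at 18 months by both criteria, 73.6% were also above 0 at 3 months, 83.5% at 6 months and 70.3% at 12 months, beside 53.5%, 52.9% and 47.7% of all bright genes. Of the 72 lower genes, 59.7%, 77.8% and 43.1% were below 0 at these ages, beside 46.5%, 47.1% and 52.3%. The higher genes thus kept their sign more often than bright genes in general at all 3 ages, and the lower ones did so at 3 and 6 months but not at 12 months. These shares are descriptions over genes that vary together.

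List by list, neutrophil medians were above 0 at 6 and 12 months as well. Primary granule medians were -0.06 at 3 months, 0.26 at 6 months and 0.17 at 12 months. For secondary and tertiary granule genes they were 0.08, 0.23 and 0.20, and for mature neutrophil genes 0.04, 0.27 and 0.33. At 6 months the difference rested on replicate 1 of the transgenic group, since the mature neutrophil means were 6.93, 7.32 and 7.53 in wild-type and 8.26, 7.56 and 7.40 in transgenic bone. The genotypes overlapped there, also for the granule lists. At 12 months the mature means were 7.49, 7.45 and 7.22 against 7.62, 7.79 and 7.59, without overlap. Both granule lists did overlap at 12 months. Primary granule means were 8.56, 8.45 and 8.23 against 8.68, 8.56 and 8.44. Secondary and tertiary granule means were 9.60, 9.77 and 9.33 against 9.72, 9.88 and 9.69. For primary granule genes the 18-month difference exceeded the younger mean with an unadjusted p under 0.05 in 3 of 8, Prtn3 by 0.56 (unadjusted p = 0.026), Ms4a3 by 0.47 (unadjusted p = 0.0421) and Mpo by 0.36 (unadjusted p = 0.0407). None passed the adjusted test.

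B cell genes had no steady sign over age. Early B cell medians were 0.04 at 3 months, -0.54 at 6 months and 0.21 at 12 months, and mature B cell medians -0.12, -0.03 and 0.23. The medians at 6 and 12 months are adjusted for the source-code prefix. At 6 months the plain early B cell list means did not overlap between genotypes. They were 7.22, 6.31 and 6.43 in wild-type and 6.13, 6.03 and 6.28 in transgenic bone. At 3 and 12 months the early B cell means overlapped. At 12 months the plain mature B cell list means overlapped between genotypes. They were 6.92, 6.49 and 7.31 in wild-type and 6.85, 6.71 and 6.97 in transgenic bone. MHC class II medians were 0.08, 0.14 and 0.22, on the other side of 0 from 18 months, with 6 of 9 members above 0 at each of these ages. The plain MHC class II list means overlapped at all 3 younger ages. At 12 months they were 5.02, 6.10 and 6.63 in wild-type and 6.18, 5.54 and 6.10 in transgenic bone. In that list 4 of 9 contrasts with the younger ages had an unadjusted p under 0.05, among them H2-DMb2 at -1.56 ± 0.51 (SE, unadjusted p = 0.00657) and H2-Ab1 at -0.90 (unadjusted p = 0.0229), with adjusted p-values of 0.999. Adipocyte medians were 0.05, -0.07 and 0.28, and the Adipoq contrast was -0.68 (unadjusted p = 0.0418). Osteoblast medians were 0.15, -0.39 and 0.61, and cartilage medians 1.22, -0.28 and -0.20. The fitted medians of both lists thus changed sign between ages. At 6 months the plain osteoblast means were 8.85, 7.78 and 8.34 in wild-type and 7.18, 7.90 and 8.56 in transgenic bone. Plain cartilage means were 4.64, 4.15 and 4.19 against 3.50, 4.71 and 4.52 at 6 months. At 12 months they were 4.13, 4.01 and 4.15 against 4.06, 4.19 and 4.44. In each of these, only transgenic replicate 1 lay below its same-numbered wild-type array.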

How the data were processed

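Each of 24 bone RNA samples was hybridised to 1 Affymetrix whole-transcript array, and the 6 arrays at 18 months were compared. The values in the deposited table behave as log2 signals, which was inferred from their range; MAS5 is the tool named in the submitters' processing notes, and the scaling is not given in the sources used here. Of 41034 rows, 23521 had 1 gene symbol, 1814 several and 15699 none. The brightest row stood for each of 22180 genes.

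limma 3.58.1 in R 4.3.3 fitted 8 groups and the source-code prefix to all 24 arrays (lmFit, eBayes), with Benjamini-Hochberg adjustment and a threshold of 0.05, and was tested on simulated data. The limma SEs and p-values set a difference against a spread between arrays pooled over the 8 groups and drawn toward a value shared by all genes. They do not use the spread of the 6 arrays alone. Where that spread was wide, the SE understates it, as for Pax5, with SDs of 0.39 in wild-type and 1.08 in transgenic bone. Members and lists were chosen with earlier results of these data known. Named genes are the 12 largest differences per direction among brighter genes with an unadjusted p under 0.05 and no overlap, the 6 of lowest p per direction without overlap (5 for the contrast of ages), and up to 4 genes per list by p, with predicted, small RNA, receptor-family (olfactory, vomeronasal, taste) and immune-receptor segment genes counted but not named; other genes were named after their values were seen. Of 496 listed entries, 458 were measured and the other 38 were not analysed here. Same-numbered arrays of the 2 genotypes deviated together (correlations 0.291, 0.130 and 0.229 over genes). Wild-type replicate 3 with transgenic replicate 2 gave 0.126, and the other unlike-numbered correlations were negative. Same-numbered pairs were therefore used only to describe values, and the labels do not say whether they are true pairs. The main fit and the permutation test were unpaired, and a fit with the replicate number as a block was run as an alternative. Promoters are from RefSeq, GRCm38.p6.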

Additional observations from a re-analysis of the deposited data

How the results depend on the processing

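In limma the count of genes called at 18 months was 0 with all arrays and 0 to 1 when each array was left out, and the same range held for the contrast with the younger ages. The gene called was an olfactory receptor gene without wild-type replicate 2 (adjusted p = 0.008) and another one without wild-type replicate 3 (adjusted p = 0.0276). The count at an unadjusted p under 0.05 ran from 714 with the 6 arrays alone to 1221 with array weights. The Hsd11b2 difference ran from 1.06 to 1.40 over the alternatives, with adjusted p from 0.0816 to 1. With the replicate number as a block on the 6 arrays, the fit called 0 genes, had 790 at an unadjusted p under 0.05 and gave Hsd11b2 1.21 with an adjusted p of 1, and the block changed no call. With the commoner code prefix alone the adipocyte mean difference was -1.17 in place of -0.43, and the cause was not tested. Leaving out each array, the list means ran from -1.04 to -0.15 for adipocyte, -0.83 to -0.34 for early B cell, -0.77 to -0.26 for mature B cell, -0.74 to -0.32 for MHC class II, 0.04 to 1.57 for cartilage and -0.26 to -0.04 for glucocorticoid response genes. For primary granule, secondary and tertiary granule and mature neutrophil genes they ran from 0.35 to 0.54, 0.26 to 0.52 and 0.39 to 0.59. The contrast with younger ages was not run with the commoner prefix alone or with the 6 arrays alone. The splits of bright genes and the list medians without each array were chosen after seeing the data. With 3 arrays per genotype, their number limits the precision.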
